A study of Mus musculus with 18 samples.

Results

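Liver gene expression of rAAV8-treated Lipa−/− mice was compared with that of WT mice at 12-weeks post-injection. Genes were taken when the 18 livers of the study together held more than 100 of their reads, which kept 14533 of the 35441 listed genes, and the comparison rests on 6 of the 18 mice. The 3 treated animals were Lipa−/− males given rAAV8.hAAT.LIPA (mice 10, 11 and 12), and the 3 WT animals were untreated (mice 1, 2 and 3). The labels call this time 3 months. No WT mouse that received the vector and no knockout that received an empty vector enters the comparison, so genotype and vector cannot be told apart.

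Lipa−/− mice on the C57/BL6N background lack exon 4 of Lipa in the whole body, since the Cre that cut it out came from a CMV promoter transgene. The vector carries the human LIPA cDNA with a C-terminal 3xHA tag under the α1-antitrypsin (hAAT) promoter, so that transcription is directed to hepatocytes, while macrophages and other cells depend on enzyme taken up from outside. Polyadenylated RNA with an added ERCC spike-in was sequenced from whole liver.

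Lysosomal acid lipase, the product of Lipa, splits cholesteryl esters and triglycerides that reach the lysosome with lipoproteins or engulfed cells. Without it, these lipids stay inside the lysosomes of hepatocytes and of Kupffer cells, the resident macrophages of the liver. Macrophages that take up much lipid switch on a set of genes for lipid binding, lysosomal degradation and matrix turnover that includes Trem2 and Gpnmb, and cells with this set are called lipid-associated macrophages. Free cholesterol released from lysosomes normally represses the sterol-regulated genes of cholesterol synthesis.

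The exon that the deletion removes is shown because reads of murine Lipa in the treated mice come from an allele without it. Exon 4 of the canonical transcript lies at chr19:34488223-34488421 of GRCm39 on the minus strand, and its length of 199 bases is no multiple of 3.
Lipa exon 4: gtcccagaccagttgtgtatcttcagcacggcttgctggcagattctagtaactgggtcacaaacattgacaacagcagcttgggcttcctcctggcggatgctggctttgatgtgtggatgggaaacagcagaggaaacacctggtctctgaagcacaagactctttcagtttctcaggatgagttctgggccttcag

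Murine Lipa and the human LIPA of the vector checked the labels of the 6 mice. Expression is given as CPM, a read count scaled to the depth of the library, after TMM scaling, which corrects for a few abundant transcripts taking many reads, and values are listed for WT mice 1, 2 and 3 and for treated mice 10, 11 and 12, in this order throughout. Murine Lipa was at 201.9, 267 and 240.9 CPM in the WT mice and 32.6, 31 and 37 CPM in the treated mice. The groups lay far apart, and the treated mice kept a low and even level of Lipa reads. In the quasi-likelihood test of edgeR, Lipa was lower in treated mice by a log2 fold change of -2.82 (SE 0.22, adjusted p = 4e-06). The vector transcript hLIPA had no read in any WT mouse and stood at 1577, 906.7 and 2631 CPM in the treated mice. Treated mouse 12 had the highest and mouse 11 the lowest level, and the difference was at least 11090-fold, counted against 3 reads per WT library. Per transcript length, the TPM of hLIPA was 8.92, 7.44 and 17.3 times the mean TPM of Lipa in WT mice in mice 10, 11 and 12. The plot of Lipa and hLIPA by mouse shows these levels.

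**Figure D1:**
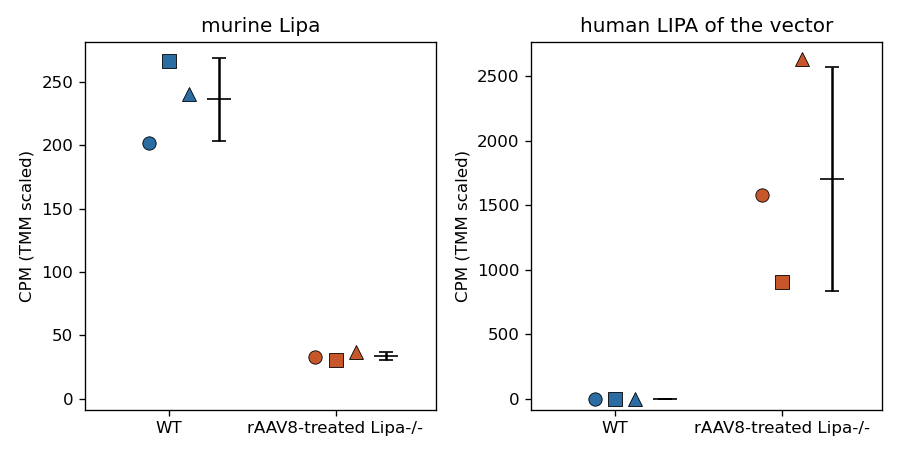
CPM (linear axes) of murine Lipa (left) and of the human LIPA of the vector (right) in the 3 WT and 3 rAAV8-treated Lipa−/− mice at 12-weeks post-injection. Circles, squares and triangles are mice 1, 2 and 3 or 10, 11 and 12, and the bar gives the mean with the SD. Lipa is between 31 and 37 CPM in treated mice and above 201 CPM in WT mice, and hLIPA is at 0 in WT mice.

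A total of 3713 genes passed the test (adjusted p under 0.05 and more than 1 log2 unit from WT in either direction), which is 25.5% of the genes tested. Of these, 1970 were higher in treated mice (13.6% of genes tested) and 1743 were lower (12%). Called genes had a median size of change of 1.55 log2 units, and 988 of them passed a log2 fold change of 2. The groups of 3 mice did not overlap for 52.5% of all genes tested. An exact permutation test of 3 mice against 3 cannot give a p below 0.1, so the tests of single genes rest on the edgeR model over all genes. The count depended on single mice, most of all on treated mouse 10 and WT mouse 3. Without treated mouse 10, 664 genes were higher (4.57%) and 1133 lower (7.8%), and without WT mouse 3, 784 were higher (5.39%) and 844 lower (5.81%). With total counts as the scale, the median over all genes went from 0.06 to -0.33 (log2) and left 986 genes higher against 3060 lower, and limma on log2(TPM + 1) left 347 higher against 2121 lower. Directions below are therefore relative to the TMM scaling.

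The difference from WT mice moved with transcript length. The 17527848 to 24244576 reads of the treated mice and 20679391 to 25833134 reads of the WT mice were alike in depth, but the TMM factors were 0.587 to 0.759 in treated and 0.809 to 0.924 in WT mice, and mitochondrially encoded transcripts took 1.53% to 3.38% against 4.63% to 7.19% of the reads. Among the shortest decile of transcripts (up to 755 bases) the median log2 fold change was 1.04, with 38.9% of genes higher and 1.24% lower. Among the longest it was -0.40, with 4.26% higher and 20.8% lower. At 34-weeks the same medians lay between -0.23 and 0.13. All 3 treated mice showed this slant, with a difference between the shortest and longest transcripts of 1.57, 1.27 and 1.27 (log2) in mice 10, 11 and 12, against -0.06, 0.57 and -0.64 in WT mice 1, 2 and 3. Its part in the results was not tested. In a second fit, offsets took out a smooth trend of each mouse's log counts with GC content and transcript length. That fit called 1409 genes higher (9.7%) and 1263 lower (8.69%), and 2009 genes were called in both fits, each in the same direction. Counts with the trend removed are given beside the groups of genes. Each count of called members below is to be read against the shares of all genes in its fit. These were 13.6% higher and 12% lower in the main fit, and 9.7% and 8.69% with the trend removed. They were 4.57% and 7.8% without treated mouse 10, and 5.39% and 5.81% without WT mouse 3.

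**Figure D2:**
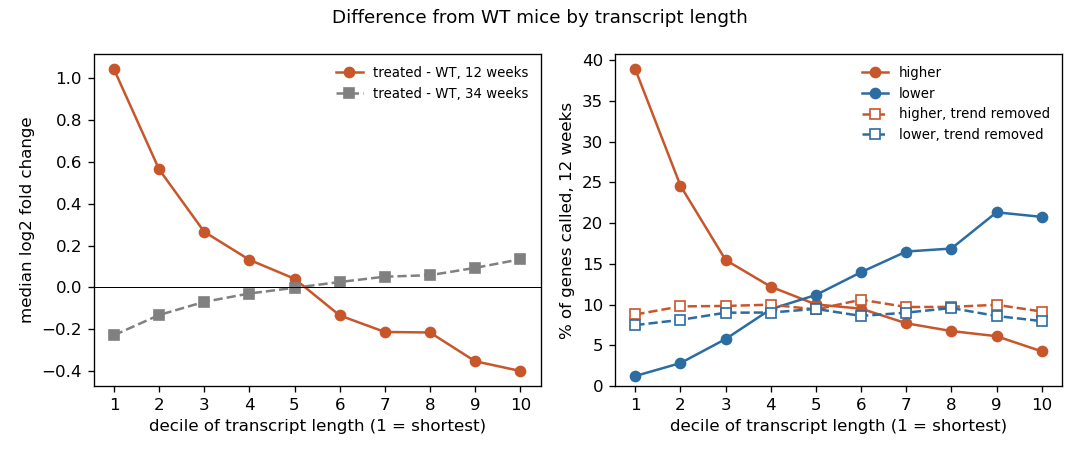
Median log2 fold change of treated against WT mice (left, at 12- and 34-weeks) and the percentage of genes called higher or lower at 12-weeks (right) by decile of transcript length, with 1451 to 1457 genes in each decile. The median falls from 1.04 to -0.40 over the deciles at 12-weeks, and the called shares are nearly level once the trend is removed (open squares).

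The genes with the largest increases included Gpnmb and Trem2, markers of lipid-associated macrophages, and Clec7a, a gene of phagocyte signalling. Gpnmb, a glycoprotein of lipid-loaded lysosomes, was at 0.161, 0.239 and 0.262 CPM in the WT mice and 146.2, 130.9 and 42.1 CPM in the treated mice. All treated mice lay far above the highest WT mouse, with mouse 12 the lowest of them. The log2 fold change was 8.87 (SE 0.95, adjusted p = 0.00012). Tff3, a secreted mucosal peptide, was at 3.43, 19.8 and 0.89 CPM in the WT mice and 568, 852.7 and 158.9 CPM in the treated mice (log2 fold change 6.03, adjusted p = 0.00205). The increase was present in every treated mouse, although WT mouse 2 was well above the other WT mice. Esm1, a proteoglycan of activated endothelium, rose by 4.87 on the log2 scale (adjusted p = 0.00647), at 0, 0.622 and 0.0524 CPM in the WT mice and 6.41, 13.4 and 0.92 CPM in the treated mice. Lyz1, a lysozyme gene that shares reads with Lyz2, rose by 5.48 (adjusted p = 0.00444). Treated mouse 11 alone was high for Gldn and Tcf24, at 6.09 and 6.68 CPM against at most 0.972 CPM in the other treated mice. Ugt2b37, a glucuronosyltransferase whose reads can be shared within its family, was at 1.07, 1.68 and 0.942 CPM in the WT mice and 93.6, 4.46 and 12.6 CPM in the treated mice, with mouse 10 far above the other treated mice (log2 fold change 4.89).

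Some of the largest differences were in gene models that may share sequence with a close copy, which was not checked. Gm16867 had no read in the WT mice and stood at 26.2, 14.9 and 7.21 CPM in the treated mice, at least 104.8-fold higher. Fam177a2 was likewise at 0 in WT mice and at 3.11, 2.83 and 1.99 CPM in treated mice, at least 17.2-fold higher, although the call was lost without any 1 of WT mice 1, 2 and 3 or treated mice 10 and 11, whereas its copy Fam177a was at 1.72, 2.63 and 2.46 CPM in WT mice and at 0 in all treated mice, at least 9.94-fold lower. The pair thus changed places between the groups. Gm5641 was at 62.5, 68.5 and 122 CPM in the WT mice and 0, 0 and 3.14 CPM in the treated mice, and Gm5831 was at 4.39, 1.1 and 6.86 CPM in WT mice and at 0 in treated mice (at least 18.1-fold lower). Where gene models share sequence, the counting can split their reads in more than one way, so the values of these genes are uncertain.

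The other large decreases included several regulators of transcription. Nfix, a nuclear factor I protein, was at 48, 23.6 and 84.4 CPM in the WT mice and 0.583, 3.64 and 4.91 CPM in the treated mice, with no overlap and a log2 fold change of -4.06 (SE 0.74, adjusted p = 0.00267). Bcl9l, a coactivator of β-catenin, fell to 0.389, 0.924 and 2.15 CPM from 25.4, 5.79 and 34.5 CPM (log2 fold change -4.22). Srcap, a chromatin remodelling ATPase, was at 16.6, 5.84 and 19.6 CPM in the WT mice and 1.65, 0.109 and 1.15 CPM in the treated mice (log2 fold change -3.96). Zfhx2 and Gse1 had log2 fold changes of -4.21 and -4.13. Cyp26b1, which breaks down retinoic acid, was at 6.38, 2.82 and 11.9 CPM in the WT mice and 0, 0.0543 and 1.23 CPM in the treated mice (log2 fold change -4.05, adjusted p = 0.00996). For all of these WT mouse 2 was the lowest of the WT mice. That mouse also had the largest difference between shortest and longest transcripts among WT mice (0.57 against -0.06 and -0.64), and its part was not tested. Nfix, Bcl9l and Srcap were called in all 20 alternative fits. Zfhx2 and Gse1 each lost the call in 1 of them and Cyp26b1 in 3. The smallest log2 changes of Zfhx2 and Gse1 in these fits were -0.73 and -0.71.

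Of the 18 markers of lipid-associated macrophages, 15 were higher and none was lower, with a median log2 fold change of 3.28 against 0.06 for all genes. The count was 13 with the trend removed, 14 without treated mouse 10 and 13 without WT mouse 3. Trem2, a lipid receptor of macrophages, was at 0.911, 0.766 and 0.0524 CPM in the WT mice and 39.8, 28 and 13.8 CPM in the treated mice (log2 fold change 5.54, adjusted p = 9.5e-05). Lgals3, which encodes galectin-3, was at 2.36, 3.78 and 2.2 CPM in the WT mice and 69.3, 82.2 and 45.2 CPM in the treated mice, with no overlap between the groups (log2 fold change 4.55, adjusted p = 1.9e-06). Cd63, a tetraspanin of late endosomes, was at 4.45, 9.47 and 4.4 CPM in the WT mice and 124.8, 86.2 and 40.7 CPM in the treated mice (log2 fold change 3.78). The macrophage elastase Mmp12 was at 1.61, 1.15 and 1.41 CPM in the WT mice and 42, 24.2 and 20.2 CPM in the treated mice, which gave a log2 fold change of 4.37 (SE 0.36, adjusted p = 5.3e-06). Lpl, a lipoprotein lipase that macrophages secrete, was at 16.3, 17.5 and 12.7 CPM in the WT mice and 69.3, 101.7 and 52.6 CPM in the treated mice (log2 fold change 2.27, adjusted p = 0.00026). Plin2, which coats lipid droplets in many cells, was at 471.6, 582 and 543.7 CPM in the WT mice and 269.8, 504.7 and 593.8 CPM in the treated mice and its groups overlapped. Summed over the list, the level was 727.7 to 870.5 CPM in WT mice and 1159 to 1625 CPM in treated mice. In whole liver, more macrophages and more RNA per macrophage cannot be told apart. Side by side, with WT mice shared between the comparisons, the median of the list was 7.06 in untreated Lipa−/− mice against WT mice at 12-weeks. It was 1.32 in treated against WT mice at 34-weeks.

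**Figure D3:**
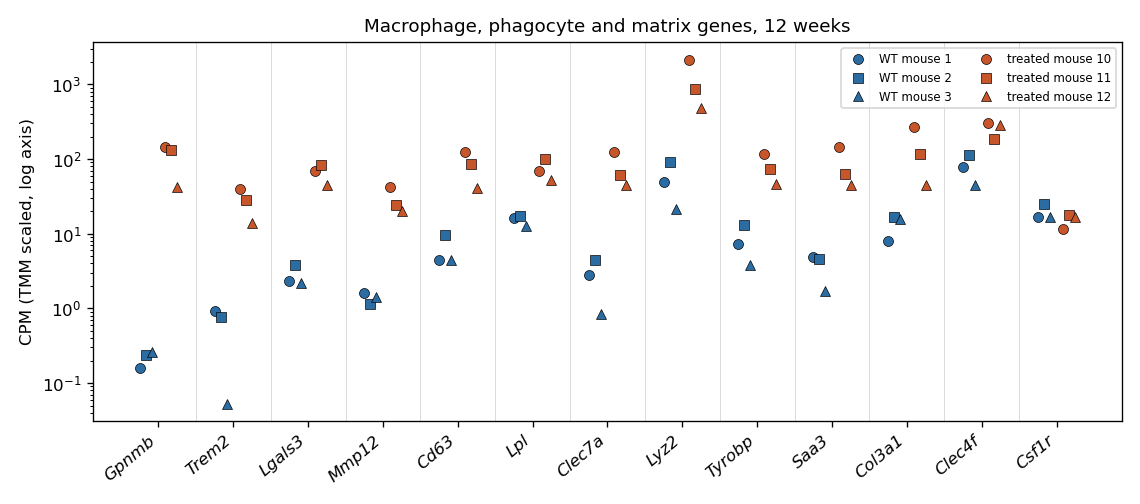
CPM on a log axis of 13 genes in the 3 WT (blue) and 3 treated mice (orange) at 12-weeks, with one symbol per mouse number. The groups are apart for the genes from Gpnmb to Clec4f, with treated mouse 12 the lowest of the treated mice for most of them, while Csf1r overlaps.

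Markers of the other myeloid cells moved less uniformly. Of 16 markers of resident Kupffer cells, 4 were higher and 1 was lower, also with the trend removed, and their summed level was 542.8 to 823.1 CPM in WT and 1070 to 1328 CPM in treated mice. Clec4f, the lectin that defines Kupffer cells, was at 78.5, 113.7 and 45.4 CPM in the WT mice and 306, 187.5 and 285.5 CPM in the treated mice without passing the test (adjusted p = 0.194). Timd4, a receptor of long-lived Kupffer cells, was at 2.63, 5.17 and 2.56 CPM in the WT mice and 3.5, 1.79 and 3.22 CPM in the treated mice (adjusted p = 0.768). Adgre1, the F4/80 antigen of macrophages, rose to 67.8, 31.7 and 20.6 CPM from 7.61, 10.4 and 4.97 CPM (log2 fold change 2.38, adjusted p = 0.00371). The scavenger receptor Cd163 fell to 0, 0.109 and 1.23 CPM from 4.98, 6.08 and 4.55 CPM (log2 fold change -3.54, adjusted p = 0.00889). Of 15 markers of monocytes and recruited macrophages, 9 were higher and 1 was lower, and 7 were higher with the trend removed. Without treated mouse 10 or without WT mouse 3 it was 5. Lyz2, the lysozyme of macrophages, was at 49.4, 91.1 and 21.6 CPM in the WT mice and 2148, 875.1 and 476.5 CPM in the treated mice (log2 fold change 4.43, adjusted p = 0.00195), with mouse 10 the highest by more than 2-fold. The chemokine receptor Ccr2 of incoming monocytes reached 2.33, 3.97 and 0.843 CPM from 0.322, 0.67 and 0.262 CPM (log2 fold change 2.50, adjusted p = 0.0184) and was not called without any 1 of treated mice 10 and 11 or WT mice 1 and 3. Csf1r, the receptor for macrophage growth factor, was at 16.9, 24.9 and 17 CPM in the WT mice and 11.5, 17.8 and 16.6 CPM in the treated mice (adjusted p = 0.472). Of 15 neutrophil markers 2 were higher, near the 13.6% of all genes, and it was 1 with the trend removed and 0 without either mouse. The count was 6 in DESeq2 and 0 in limma. Their median log2 fold change was 2.77, or 2.43 with the trend removed, and 14 of the 15 leaned higher. Summed, they were at 8.25 to 10.57 CPM in WT mice and 18.71 to 89 CPM in treated mice. The neutrophil gene Ly6g had no reads in 5 of the 6 mice.

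Phagocyte signalling genes rose with the macrophage markers. Of 24 genes of Fc receptors and phagocyte signalling, 17 were higher and none was lower (median 1.55), and 18 were higher with the trend removed, 14 without treated mouse 10 and 10 without WT mouse 3. Tyrobp, the adaptor of TREM2, was at 7.29, 13.3 and 3.82 CPM in the WT mice and 118.5, 73.1 and 46.4 CPM in the treated mice (log2 fold change 3.28, adjusted p = 0.00211). Fcer1g, a signalling chain of Fc receptors, was at 4.34, 7.27 and 3.46 CPM in the WT mice and 25.9, 22.8 and 17.9 CPM in the treated mice (log2 fold change 2.14). Clec7a, the β-glucan receptor, was at 2.79, 4.45 and 0.838 CPM in the WT mice and 125.4, 61.4 and 44.8 CPM in the treated mice (log2 fold change 4.83, adjusted p = 0.00065). Cyba, a subunit of the phagocyte oxidase, rose by 3.39 and the kinase Syk by 1.59 (adjusted p = 0.00487). None of the WT and treated values overlapped for these 5 genes. Over the list the groups did not overlap for 20 of 24 genes, against 52.5% of all genes tested.

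Promoter sequences are shown for Gpnmb, Trem2 and Lyz2, which rose with the macrophage lists, and for the lysosomal gene Ctsd, which was also higher. They are the 250 bases before the RefSeq start in GRCm38.p6, and capitals mark matches on either strand. The E-box searched was CACGTG, as in many lysosomal genes. The AP-1 site was TGANTCA. The ETS sites, bound by the macrophage factor PU.1 among others, were AGGAAG and GGAAGT, which overlap where both share the core. The sterol element was TCACNCCAC. Gpnmb lies at chr6:49036268-49036517 on the plus strand, Trem2 at chr17:48346151-48346400 on the plus strand, Ctsd at chr7:142387828-142388077 on the minus strand and Lyz2 at chr10:117282273-117282522 on the minus strand.
Gpnmb: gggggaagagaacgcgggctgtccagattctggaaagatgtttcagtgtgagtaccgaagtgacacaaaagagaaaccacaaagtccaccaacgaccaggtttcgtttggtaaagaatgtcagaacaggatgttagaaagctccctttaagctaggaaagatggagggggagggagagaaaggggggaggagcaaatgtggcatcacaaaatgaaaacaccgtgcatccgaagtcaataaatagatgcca
Trem2: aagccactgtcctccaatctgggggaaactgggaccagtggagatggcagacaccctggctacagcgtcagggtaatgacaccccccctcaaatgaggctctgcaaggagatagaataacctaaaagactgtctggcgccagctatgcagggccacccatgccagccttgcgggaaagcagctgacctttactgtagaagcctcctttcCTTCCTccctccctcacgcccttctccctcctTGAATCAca
Ctsd: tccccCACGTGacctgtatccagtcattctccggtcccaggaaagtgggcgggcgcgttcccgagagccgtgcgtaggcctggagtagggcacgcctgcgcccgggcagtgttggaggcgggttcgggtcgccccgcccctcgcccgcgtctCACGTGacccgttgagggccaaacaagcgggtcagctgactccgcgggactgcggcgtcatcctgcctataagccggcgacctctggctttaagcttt
Lyz2: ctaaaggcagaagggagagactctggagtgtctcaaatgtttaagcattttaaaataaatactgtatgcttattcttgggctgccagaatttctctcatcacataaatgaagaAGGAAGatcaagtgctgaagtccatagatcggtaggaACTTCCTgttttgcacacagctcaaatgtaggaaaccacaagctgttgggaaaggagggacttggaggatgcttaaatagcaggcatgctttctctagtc

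The table holds 32851 promoters, and 10985 of the 14533 genes tested matched one. CACGTG was in 6.02% of all promoters, TGANTCA in 6.75%, AGGAAG in 29.5%, GGAAGT in 19.7% and TCACNCCAC in 1.05%. Among the 10985 promoters of genes tested the shares were 8.12%, 4.78%, 28.3%, 23.3% and 1.02%, in the same order. Of the 15 promoters of lipid-associated macrophage markers, 0 held CACGTG, 3 held TGANTCA, 6 held AGGAAG, 5 held GGAAGT and 1 held TCACNCCAC. Of the 41 promoters of lysosomal genes, 13 held CACGTG, 3 held TGANTCA, 11 held AGGAAG, 8 held GGAAGT and 2 held TCACNCCAC. In the same order of motifs, the numbers were 3, 1, 3, 2 and 1 of 18 promoters of cholesterol biosynthesis genes. They were 4, 0, 5, 3 and 0 of 16 promoters of immediate early genes. Matches are descriptions of the sequence and were not tested.

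Genes of MHC class II presentation and chemokines were in part higher. Of 15 genes of MHC class II presentation 8 were higher and none was lower, also with the trend removed, and it was 6 without treated mouse 10 and 4 without WT mouse 3. The class II chain H2-Ab1 was at 22.3, 54.5 and 16.2 CPM in the WT mice and 95, 116 and 101.7 CPM in the treated mice (log2 fold change 1.75, adjusted p = 0.0245). It was not called without any 1 of treated mice 10 and 11 or WT mice 1 and 3, and its reads can be shared with other H2 genes. Of 18 genes of MHC class I and the immunoproteasome 4 were higher and 1 was lower (median 0.26), or 1 and 1 with the trend removed and 1 and 0 without treated mouse 10 or without WT mouse 3. With the trend removed these counts were under the 9.7% and 8.69% of all genes. The invariant chain Cd74 was at 33.6, 72.2 and 34 CPM in the WT mice and 15.9, 80.9 and 81.2 CPM in the treated mice and its groups overlapped (adjusted p = 0.66). Of 27 chemokines and their receptors 15 were higher, 12 with the trend removed, 7 without treated mouse 10 and 6 without WT mouse 3. The chemokine receptor Cxcr4 was at 0.536, 2.01 and 0.838 CPM in the WT mice and 14.8, 8.59 and 4.37 CPM in the treated mice (log2 fold change 3.00), and Ccl5, made by T and NK cells, was at 0.322, 0.909 and 0.262 CPM in the WT mice and 3.5, 5.11 and 3.3 CPM in the treated mice (log2 fold change 2.97, adjusted p = 0.00277). Cxcl1, which attracts neutrophils, was at 10.4, 7.03 and 12.8 CPM in the WT mice and 457.1, 22 and 11.1 CPM in the treated mice. Mouse 10 alone was far above the WT mice, and the log2 fold change of 4.02 was 0.65 without it.

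Of the 22 markers of T and NK cells, 11 were higher, 9 with the trend removed and 7 without either of the 2 mice. Cd8a was at 0.268, 0.191 and 0.209 CPM in the WT mice and 2.33, 2.01 and 1.76 CPM in the treated mice (log2 fold change 3.16, adjusted p = 0.00171), and the granule protease Gzma was at 0.322, 0.383 and 0.209 CPM in the WT mice and 6.22, 3.31 and 2.53 CPM in the treated mice (log2 fold change 3.69). Cd3e, which all T cells express, was at 0.107, 0.383 and 0.157 CPM in the WT mice and 0.194, 0.435 and 0.537 CPM in the treated mice (adjusted p = 0.372). Of 15 markers of B and plasma cells 8 were higher, 4 with the trend removed, 7 without treated mouse 10, 5 without treated mouse 11 and 4 without WT mouse 3. Jchain, which joins secreted immunoglobulins, was at 1.12, 2.58 and 1.1 CPM in the WT mice and 28.3, 22.8 and 6.59 CPM in the treated mice (log2 fold change 3.57, adjusted p = 0.00559).

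A list of nucleic acid sensing held 30 genes, not all of them sensors of viral nucleic acids. Of these, 9 were higher and 2 were lower, against 13.6% and 12% of all genes. With the trend removed and without treated mouse 10 it was 9 and 3 and 8 and 3, and without WT mouse 3 it was 8 and 2. The DNA sensor Cgas was at 0.161, 0.287 and 0.105 CPM in the WT mice and 1.46, 1.14 and 1.15 CPM in the treated mice (log2 fold change 2.70, adjusted p = 0.00287), and Tlr2 was at 1.29, 2.15 and 0.68 CPM in the WT mice and 18.5, 7.77 and 4.98 CPM in the treated mice (log2 fold change 2.90). Tlr9, the sensor of unmethylated DNA, had at most 0.335 CPM in any of the 6 mice. The RNA sensor Rigi was lower, at 13.8, 9.76 and 19.3 CPM in the WT mice and 0.583, 4.62 and 4.98 CPM in the treated mice (log2 fold change -2.04, adjusted p = 0.0076), and so was its adaptor Mavs (log2 fold change -1.46, adjusted p = 0.00515). Of 33 interferon-stimulated genes 6 were higher and 2 were lower, against 13.6% and 12% of all genes. With the trend removed it was 3 and 2, near or under the 9.7% and 8.69% of all genes in that fit. Leaving out treated mouse 10 or WT mouse 3 gave 1 and 1, and leaving out WT mouse 1 gave 3 higher. Isg15 was at 10.4, 12.8 and 9.06 CPM in the WT mice and 28.3, 28.3 and 24.9 CPM in the treated mice (log2 fold change 1.33, adjusted p = 0.0305), but it was not called without WT mouse 1 or 3 or any 1 of the treated mice, nor with the trend removed (log2 fold change 0.24). Ifit1 was at 6.59, 8.28 and 8.01 CPM in the WT mice and 6.51, 7.88 and 8.51 CPM in the treated mice, with overlapping groups. AU040320, the mouse gene of the AAV receptor, was at 17.2, 12.4 and 22.4 CPM in the WT mice and 6.22, 6.96 and 7.82 CPM in the treated mice (log2 fold change -1.31), and it was not called with the trend removed (-0.68).

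Acute phase and complement genes encode plasma proteins that the liver makes in inflammation. Of 25 acute phase genes 7 were higher and 1 was lower (median 0.99), or 5 and 2 with the trend removed (median 0.22). It was 3 higher without treated mouse 10 or without WT mouse 3 and 4 without WT mouse 1. In the main fit and with the trend removed, the lower counts were under the 12% and 8.69% of all genes. The higher counts were above the 13.6% and 9.7%. Saa3, a serum amyloid gene of macrophages and adipocytes, was at 4.88, 4.59 and 1.73 CPM in the WT mice and 147.3, 64 and 45 CPM in the treated mice (log2 fold change 4.51, adjusted p = 0.00065). Saa1, made by hepatocytes, was at 78, 54.7 and 52.1 CPM in the WT mice and 1203, 266.3 and 235.1 CPM in the treated mice and was highest in mouse 10 (adjusted p = 0.0582). Reads may be shared within this family. Hemopexin (Hpx), which binds heme, was at 3646, 4520 and 2601 CPM in the WT mice and 22440, 15300 and 11020 CPM in the treated mice (log2 fold change 2.18). Serpina3n fell to 35.7, 63.2 and 89.8 CPM from 172.9, 176.1 and 229.6 CPM (log2 fold change -1.62). Of 31 complement genes 11 were higher and 1 was lower, or 6 and 0 with the trend removed, with 3 higher without treated mouse 10 and 4 without WT mouse 3, and 6 when WT mouse 1 was left out. C1qa, made by macrophages, was at 35.8, 62.9 and 24.4 CPM in the WT mice and 112, 134.1 and 130.3 CPM in the treated mice (log2 fold change 1.61, adjusted p = 0.0269) and was not called without WT mouse 1 or 3 or any 1 of the treated mice, while C3, made mainly by hepatocytes, was at 3370, 2823 and 5087 CPM in the WT mice and 1168, 2588 and 2017 CPM in the treated mice (log2 fold change -0.97, under the fold limit).

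Stellate cells and myofibroblasts make most of the fibrillar matrix of the liver. Of 19 markers of stellate cells and myofibroblasts 6 were higher, also with the trend removed, and 4 without treated mouse 10. Lrat, which stores retinol in stellate cells, was at 11.2, 12.5 and 14 CPM in the WT mice and 12.9, 10.2 and 18.7 CPM in the treated mice (adjusted p = 0.732), and the myofibroblast actin Acta2 was at 1.82, 4.55 and 6.65 CPM in the WT mice and 17.9, 5.81 and 2.99 CPM in the treated mice (adjusted p = 0.164). Of 31 genes of collagens and their crosslinking 9 were higher and 5 were lower, and with the trend removed 14 were higher and 2 were lower. Without treated mouse 10 it was 4 and 1, and without WT mouse 3 it was 8 and 1, and 3 were lower without WT mouse 1 or without treated mouse 11. Col3a1 was at 8.04, 16.5 and 15.8 CPM in the WT mice and 267.3, 115.3 and 45 CPM in the treated mice (log2 fold change 3.41, adjusted p = 0.00173), and Col1a1 was at 2.36, 4.45 and 4.03 CPM in the WT mice and 55.8, 11.2 and 11 CPM in the treated mice (log2 fold change 2.83). Both fibrillar collagens were highest in treated mouse 10. The basement membrane collagen Col4a1 was at 11.6, 12.2 and 21.7 CPM in the WT mice and 18.7, 12.5 and 9.43 CPM in the treated mice, with overlapping groups. Of 27 metalloproteinases and inhibitors 8 were higher and 4 were lower, or 9 and 2 with the trend removed and 7 and 2 without treated mouse 10. The lower counts were near the 12% and 8.69% of all genes in the main fit and with the trend removed. Mmp15, a membrane-type protease, was at 29.6, 17.1 and 42.9 CPM in the WT mice and 0.583, 3.15 and 3.83 CPM in the treated mice (log2 fold change -3.53, adjusted p = 0.00156).

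Sinusoidal endothelial cells line the liver capillaries. Of their 18 markers 1 was higher and 5 were lower, or 1 and 3 with the trend removed and without treated mouse 10, and 0 and 3 without WT mouse 3. Dnase1l3, an endonuclease, was at 32.1, 35.9 and 36.4 CPM in the WT mice and 1.94, 5.65 and 12.3 CPM in the treated mice (log2 fold change -2.38, adjusted p = 0.00313). Ehd3, which marks fenestrated endothelium, was at 46.5, 50.7 and 56 CPM in the WT mice and 8.06, 13.9 and 23.5 CPM in the treated mice (log2 fold change -1.75, adjusted p = 0.00209). The hyaluronan receptor Stab2 was at 19.9, 20.4 and 22 CPM in the WT mice and 8.16, 9.13 and 11.3 CPM in the treated mice (log2 fold change -1.12, not called with the trend removed), and Lyve1 moved the other way, at 3.43, 8.61 and 4.19 CPM in the WT mice and 18.3, 20.2 and 12 CPM in the treated mice (log2 fold change 1.63), although its call was lost without WT mouse 3. Of 14 cholangiocyte markers 2 were lower, near the 12% of all genes, with 1 higher when the trend was removed. None of 9 erythroid markers passed the test. Hepatocyte markers defined the tissue in all mice. Albumin (Alb) was at 39580, 49070 and 48200 CPM in the WT mice and 31950, 64990 and 41160 CPM in the treated mice, with overlapping groups. Of 18 hepatocyte markers 2 were higher and 2 were lower (median 0.04), near the 13.6% and 12% of all genes.

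Lysosomal genes were in part higher. Of 51 lysosomal hydrolases and membrane proteins 13 were higher and 5 were lower (median 0.01), against 13.6% and 12% of all genes. With the trend removed 13 were higher and 2 were lower, against 9.7% and 8.69%. The lower counts were under the share of all genes in both fits. Without treated mouse 10 it was 10 and 3, and without WT mouse 3 it was 11 and 2. Ctsd, the aspartyl cathepsin whose promoter holds CACGTG 2 times, was at 314.6, 390.3 and 321.4 CPM in the WT mice and 993.2, 762.6 and 576.1 CPM in the treated mice (log2 fold change 1.18, adjusted p = 0.00487), and was not called without mouse 10. Ctsk, a collagen-degrading cathepsin, was at 0.804, 0.909 and 0.523 CPM in the WT mice and 22.1, 8.37 and 3.68 CPM in the treated mice (log2 fold change 3.91). The abundant membrane protein Lamp1 was at 528.2, 589.3 and 556.3 CPM in the WT mice and 588.2, 606.3 and 654.5 CPM in the treated mice, without a passing test (adjusted p = 0.57). In the proton pump, the macrophage subunit Atp6v0d2 was at 0.75, 0.718 and 1.15 CPM in the WT mice and 8.36, 8.8 and 4.75 CPM in the treated mice (log2 fold change 3.06), whereas the widely expressed Atp6v0a1 was at 30.1, 19.9 and 40.4 CPM in the WT mice and 0.68, 6.41 and 8.28 CPM in the treated mice (log2 fold change -2.53, adjusted p = 0.00689).

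Some of the genes that make sterols and fatty acids were lower. Of 27 genes of cholesterol biosynthesis and uptake 7 were lower and none was higher (median -0.73), with 5 lower with the trend removed, 3 without treated mouse 10 and 5 without WT mouse 3, while leaving out treated mouse 12 gave 11. Squalene epoxidase (Sqle) was at 116, 144.1 and 95 CPM in the WT mice and 49.4, 63.7 and 73.2 CPM in the treated mice (log2 fold change -0.93, under the fold limit). All Sqle values of treated mice were below those of the WT mice. Soat1, which esterifies cholesterol, rose to 8.65, 7.55 and 4.52 CPM from 1.45, 2.63 and 1.31 CPM (log2 fold change 1.93, adjusted p = 0.00198).

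Of 28 genes of lipogenesis, elongation and desaturation 12 were lower and none was higher (median -0.69). With the trend removed 7 were lower and 1 was higher, and 8 were lower without treated mouse 10 and 7 without WT mouse 3. Fatty acid synthase (Fasn) was at 889.5, 522.4 and 994.8 CPM in the WT mice and 134.6, 139.4 and 153.2 CPM in the treated mice, which gave a log2 fold change of -2.49 (SE 0.57, adjusted p = 0.00629). The treated mice were close to one another and the WT mice were the more variable. Acaca, acetyl-CoA carboxylase, was at 69.99, 50.4 and 94.4 CPM in the WT mice and 15, 19.2 and 24.7 CPM in the treated mice (log2 fold change -1.87, adjusted p = 0.00532). Lpin1, a phosphatidate phosphatase, was at 30.6, 23.8 and 139.9 CPM in the WT mice and 6.22, 11.5 and 9.2 CPM in the treated mice with WT mouse 3 high (log2 fold change -2.84), and was not called without that mouse. The desaturase gene Scd1 was at 8232, 6960 and 12880 CPM in the WT mice and 6165, 9601 and 6844 CPM in the treated mice, with overlapping groups. Of 24 genes of apolipoproteins and VLDL assembly 6 were higher and none was lower. With the trend removed 2 were higher and 2 were lower, close to the 9.7% and 8.69% of all genes in that fit, and 0 were higher without treated mouse 10 and 1 without WT mouse 3. Apoa4 was at 388.3, 366.5 and 518.7 CPM in the WT mice and 2589, 912.2 and 548.9 CPM in the treated mice (log2 fold change 1.67), with mouse 10 far above the others and no call without it, and Apob was at 2152, 1961 and 3584 CPM in the WT mice and 1727, 1823 and 1898 CPM in the treated mice.

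**Figure D4:**
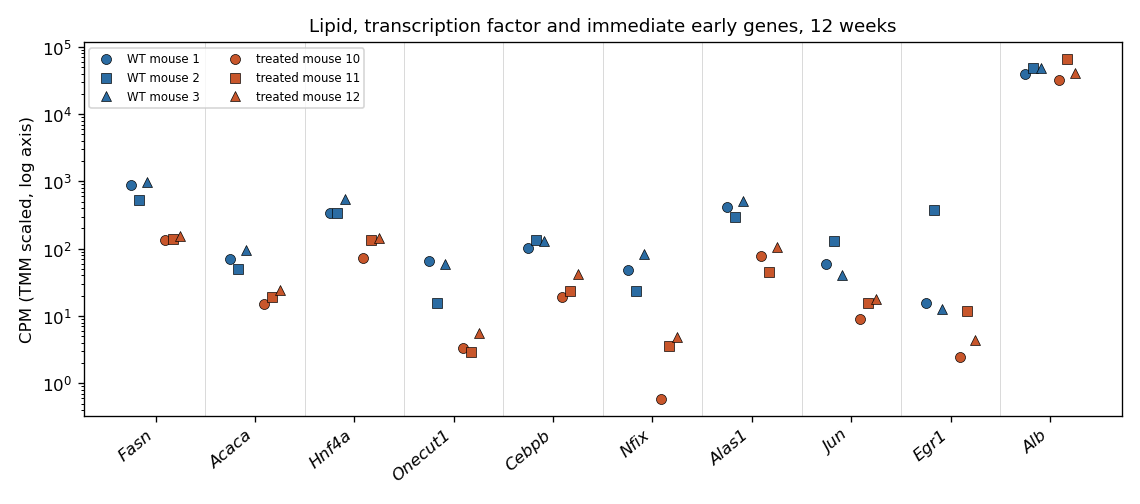
CPM on a log axis of 10 genes in the 3 WT (blue) and 3 treated mice (orange) at 12-weeks, with one symbol per mouse number. From Fasn to Jun all treated mice lie below the WT mice, the Egr1 values of WT mouse 2 stand apart from the others, and Alb overlaps.

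Several transcription factors of hepatocytes were lower. Of 25, 11 were lower and 1 was higher (median -0.93), and with the trend removed, without treated mouse 10 or without WT mouse 3 it was 7 lower each. The median was -0.30, -0.48 and -0.70 in these 3 fits. Hnf4a, the nuclear receptor that maintains hepatocyte identity, was at 340.8, 340.1 and 548.9 CPM in the WT mice and 72, 132.8 and 145.4 CPM in the treated mice (log2 fold change -1.81, SE 0.31, adjusted p = 0.00229). In 2 of 20 alternative fits Hnf4a fell under the fold limit, with a log2 fold change as small as -0.92. Cebpb, a leucine zipper factor, was at 104.1, 134.4 and 129.7 CPM in the WT mice and 19.4, 23.7 and 42.2 CPM in the treated mice (log2 fold change -2.11, adjusted p = 0.00196). Onecut1, a homeobox factor of hepatocytes and bile ducts, was at 66.2, 15.5 and 59.5 CPM in the WT mice and 3.4, 2.93 and 5.67 CPM in the treated mice (log2 fold change -3.56, adjusted p = 0.00359). The nuclear receptor Nr1h3, which senses oxysterols, was higher, at 144, 147.9 and 100.5 CPM in the WT mice and 402.9, 233.4 and 247.5 CPM in the treated mice (log2 fold change 1.17), but was not called without mouse 10 or without WT mouse 3.

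Of 40 cytochrome P450 genes, which oxidise steroids and drugs, 4 were higher and 4 were lower, which is under the 13.6% and 12% of all genes. With the trend removed 4 were higher and 8 were lower. The counts were 1 and 3 without treated mouse 10 and 1 and 2 without WT mouse 3. Leaving out WT mouse 1 or 2 gave 2 higher, and leaving out treated mouse 12 gave 9 lower. Cyp3a11 was at 795.7, 908.2 and 537.5 CPM in the WT mice and 4167, 1848 and 1510 CPM in the treated mice (log2 fold change 1.75, adjusted p = 0.00745, not called without mouse 10), while Cyp2c50 was at 543.9, 703.4 and 748.4 CPM in the WT mice and 160.3, 184.5 and 392.2 CPM in the treated mice (log2 fold change -1.44), and paralogs may share their reads. Cyp2e1 was at 3679, 5113 and 4754 CPM in the WT mice and 2354, 2578 and 4324 CPM in the treated mice, with overlapping groups (adjusted p = 0.236). Glul, the glutamine synthetase of hepatocytes near the central vein, was at 923, 864 and 1015 CPM in the WT mice and 195.7, 253 and 466.4 CPM in the treated mice (log2 fold change -1.61, adjusted p = 0.0204), and it was not called without mouse 10, mouse 11 or WT mouse 3. Alas1, which starts heme synthesis, was at 413.6, 294.8 and 505.4 CPM in the WT mice and 78.3, 45.4 and 105.4 CPM in the treated mice (log2 fold change -2.41, adjusted p = 0.00478). Tat, a tyrosine aminotransferase, was at 1251, 1412 and 1805 CPM in the WT mice and 226.9, 746.3 and 705.3 CPM in the treated mice (log2 fold change -1.41) and was not called without WT mouse 3. Major urinary proteins, pheromone carriers whose near-identical copies share reads, had 3 of 22 genes higher, which is near the 13.6% of all genes. None was higher with the trend removed or without treated mouse 10 and 1 without WT mouse 3, while 7 were higher when treated mouse 11 was left out.

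Genes of mitochondria and ribosomes have short transcripts, with a median length of 436 bases for cytosolic ribosomal genes against 2209 for all genes tested. Most of their calls were absent once the length trend was removed. Of 36 nuclear genes of respiratory complex I 15 were higher and none was lower, with 4 higher when the trend was removed, 5 without treated mouse 10 and 6 without WT mouse 3. Of 80 cytosolic ribosomal genes 54 were higher, 19 with the trend removed, where 2 were lower. Their median log2 fold change was 1.4 and 0.38 in the 2 fits. Without treated mouse 10 it was 17 genes, and without WT mouse 3 it was 16. Of 38 proteasome genes 14 were higher, 2 with the trend removed, 2 without treated mouse 10 and 3 without WT mouse 3, and 8 when WT mouse 1 was left out. Rpl13a, of the large ribosomal subunit, was at 765.5, 1040 and 439.6 CPM in the WT mice and 8068, 3193 and 2715 CPM in the treated mice (log2 fold change 2.64, 1.63 with the trend removed). Cox4i1, a subunit of cytochrome oxidase, was at 738.6, 949.2 and 525.9 CPM in the WT mice and 3072, 1887 and 1995 CPM in the treated mice, with log2 fold changes of 1.65 and 1.03 in the 2 fits and no call without mouse 10 or without WT mouse 3. The genes encoded by mitochondrial DNA moved in the opposite direction. Of 13, 6 were lower and 1 was higher (median -1.05), 12 were lower with the trend removed, and 1 and 0 were lower without treated mouse 10 and without WT mouse 3. Leaving out WT mouse 1, treated mouse 11 or treated mouse 12 gave 2, 1 and 10. The complex I gene mt-Nd1 was at 4462, 4136 and 5670 CPM in the WT mice and 1087, 2546 and 3244 CPM in the treated mice (log2 fold change -1.05, adjusted p = 0.0367), with treated mouse 10 the lowest and no call without any 1 of treated mice 10 and 11 or WT mice 1 and 3.

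Immediate early genes respond to handling and stress within minutes. Of 20, 9 were lower and 1 was higher (median -1.77), with 8 lower when the trend was removed, 6 without treated mouse 10 and 11 without WT mouse 3. Without WT mouse 2, in which the summed level was 1964 CPM against 510.1 and 420.6 CPM in WT mice 1 and 3, 4 were lower and 2 were higher. Jun was at 58.4, 128.9 and 41.2 CPM in the WT mice and 9.13, 15.6 and 17.9 CPM in the treated mice, without overlap (log2 fold change -2.42, adjusted p = 0.00196). Egr1 was at 15.8, 369.9 and 12.6 CPM in the WT mice and 2.43, 11.7 and 4.37 CPM in the treated mice and Fos at 4.23, 43.8 and 1.78 CPM in the WT mice and 2.04, 1.63 and 0.69 CPM in the treated mice, and WT mouse 2 was far above all other mice. The log2 fold changes of these genes were -4.39 and -3.52, and neither was called without that mouse. The heat shock gene Dnajb1 likewise reached 1001 CPM in WT mouse 2 against 32.3 to 104.5 CPM in the other mice. Its log2 fold change of -2.57 turned to 0.77 without that mouse. Bag3, a cochaperone, was lower in all treated mice, at 36.9, 72.1 and 55.5 CPM in the WT mice and 19.2, 11.4 and 10.1 CPM in the treated mice (log2 fold change -2.02, adjusted p = 0.00222). The cell cycle inhibitor Cdkn1a was at 13.8, 38.9 and 16.5 CPM in the WT mice and 5.73, 6.9 and 4.52 CPM in the treated mice (log2 fold change -2.01, adjusted p = 0.00275). Of 21 clock genes 5 were lower, 4 with the trend removed and 3 without WT mouse 3. Npas2 was at 6.64, 4.26 and 8.64 CPM in the WT mice and 1.36, 1.25 and 0.92 CPM in the treated mice (log2 fold change -2.47), while Dbp, whose level swings over the day, was at 0.911, 1 and 1.26 CPM in the WT mice and 1.85, 0.978 and 1.92 CPM in the treated mice. Of 42 cell cycle genes 5 were higher, near the 13.6% of all genes. It was 2 with the trend removed, 1 without WT mouse 1 or 2 and 0 without treated mouse 10 or WT mouse 3. Their median log2 fold change was 0.85, or 1.07 with the trend removed, against 0.06 and 0.03 for all genes, and 37 leaned higher. Summed, they were at 147.8 to 162 CPM in WT mice and 235.9 to 280.9 CPM in treated mice. Mki67, a marker of dividing cells, was at 0.75, 0.478 and 0.995 CPM in the WT mice and 1.75, 1.79 and 0.997 CPM in the treated mice (adjusted p = 0.393).

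**Figure D5:**
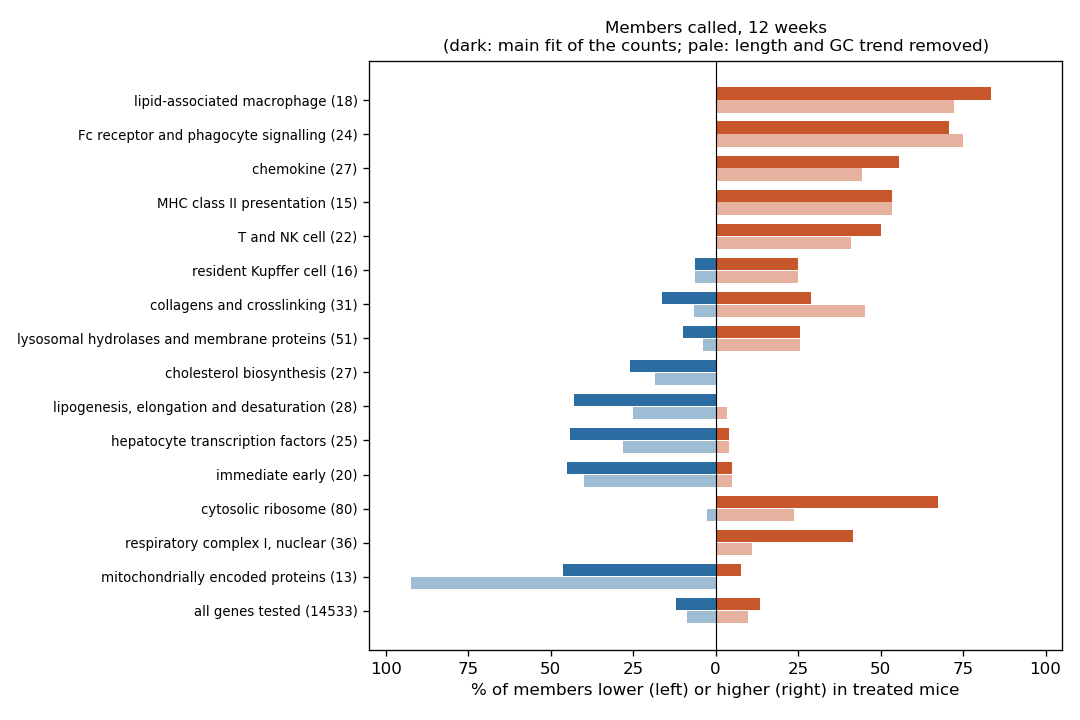
Percentage of the members of 15 gene lists and of all genes tested that were called higher (orange, right) or lower (blue, left) in treated mice at 12-weeks, with the number of members in parentheses. Dark bars are the main fit and pale bars the fit with the length and GC trend removed. The macrophage and phagocyte lists keep most of their calls in both fits, while cytosolic ribosomal genes fall from 54 to 19.

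The difference from WT mice was set against that at 34-weeks by an interaction test, in which the sides share no mouse. It called 1428 genes as more positive at 12-weeks (9.83%) and 1247 as more negative (8.58%). This test was unstable, since leaving out treated mouse 9 of the later time point left 1 gene. Leaving out WT mouse 3 of 12-weeks left 3, leaving out its WT mouse 1 left 64, and 0 passed at an adjusted p under 0.01. Without treated mouse 9 of 34-weeks, 4258 genes had an unadjusted p under 0.05, against 5516 in all mice. The mice of the 2 time points carry different study codes, so time and code cannot be told apart. Among genes with large interactions were Gm16867 (log2 12.80) and Cyp2a4 (8.35), a steroid hydroxylase for which treated mouse 11 stood at 8.15 CPM against at most 0.307 CPM in the other 5 mice. It was not called at 12-weeks without mouse 11 or without any 1 of the WT mice. Abcd2, a peroxisomal transporter of fatty acids, was at 0.59, 0.861 and 1.89 CPM in the WT mice and 2.14, 32.7 and 2.53 CPM in the treated mice, again with mouse 11 high and no call at 12-weeks without it (interaction 5.82). On the negative side, Pitx3 was at 4.29, 3.59 and 6.65 CPM in the WT mice and 0, 0.272 and 0.613 CPM in the treated mice (interaction -5.90) and the acetylcholine receptor gene Chrna4 at 38.3, 11.4 and 25.1 CPM in the WT mice and 0.194, 3.31 and 1.76 CPM in the treated mice (interaction -5.43).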

How the data were processed

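Whole-liver RNA of 18 male mice was sequenced. The authors deposited estimated counts per gene from Salmon with hLIPA added, TPM, and mean effective transcript lengths, on GRCm39 per the labels, made with R 4.3.0. Their DESeq2 1.40.1 table of log2 fold changes was not used. Replicates are separate mice.

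Estimated counts were rounded, genes with more than 100 reads over all mice were kept, and edgeR 4.0.16 (R 4.3.3) with TMM factors was fitted to all 6 groups of 3 mice by the quasi-likelihood test with Benjamini-Hochberg adjustment. A call needed an adjusted p under 0.05 and an absolute log2 fold change over 1. The CPM floor was 3 reads. Alternatives used limma 3.58.1 on log2(TPM + 1), DESeq2 1.42.0, other scalings and filters, trend removal, and leaving out each mouse. Scripts were tested on simulated data. Promoters came from RefSeq (GRCm38.p6) and the exon from a GRCm39 annotation, and some of the motifs were chosen after the promoters were seen.

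Gene lists were chosen with earlier results of these data known. Named genes were Lipa and hLIPA, the 12 called genes with the largest change in each direction, among those whose groups did not overlap, the first 3 genes and the 3 most changed called genes in each direction of each list, and the 6 with the largest interaction in each direction, at a mean of at least 1 CPM except for the first 3 of a list. Some genes that this rule selected are not reported here.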

Additional observations from a re-analysis of the deposited data

Results flagged for a closer look

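The difference of treated from WT mice was not the same at 12- and 34-weeks for 2675 genes in the interaction test of edgeR (adjusted p under 0.05 and a difference over 1 log2 unit). Of the 112 genes named in the report, 61 passed, 29 with a more positive and 32 with a more negative difference at 12-weeks, and 49 of them also passed with the length and GC trend removed. Their adjusted p lay between 0.0168 and 0.0479, so all were near the threshold. Many named genes were chosen for a large difference at 12-weeks or a large interaction, which by itself raises the share that passed. Among all genes tested, 9.83% passed as more positive and 8.58% as more negative. Over all genes, 1 passed when treated mouse 9 of the later time point was left out, and 3 when WT mouse 3 of 12-weeks was. Values below are the log2 difference at 12-weeks minus that at 34-weeks.

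For the macrophage and phagocyte genes, the values were Adgre1 2.61, Cd63 2.32, Clec7a 3.31, Cyba 2.85, Fcer1g 1.43 and Lgals3 2.41. Also in this group, they were Lpl 1.09, Lyz2 3.45, Mmp12 2.22, Trem2 2.63 and Tyrobp 2.82. For the immune and acute phase genes with a positive difference, the values were Cgas 2.51, Cxcl1 4.59, Hpx 2.37, Jchain 4.11, Saa3 3.79 and Tlr2 2.19. For the lysosomal, lipid and matrix genes with a positive difference, the values were Apoa4 3.05, Col3a1 3.04, Ctsd 1.08 and Nr1h3 1.57. For the other genes with a positive difference, the values were Abcd2 5.82, Cox4i1 2.25, Cyp2a4 8.35, Cyp3a11 2.46, Gm16867 12.80 and Rpl13a 3.15. Also in this group, they were Tcf24 5.99 and Ugt2b37 4.02. For the sterol and lipid genes, the values were Acaca -1.84, Lpin1 -2.90 and Sqle -1.90. For the regulators of transcription, the values were Bcl9l -4.41, Cebpb -1.88, Gse1 -4.92, Hnf4a -1.85, Nfix -4.35 and Npas2 -2.95. Also in this group, they were Onecut1 -4.27, Pitx3 -5.90, Srcap -4.77 and Zfhx2 -4.97. For the stress and immediate early genes, the values were Bag3 -2.05, Cdkn1a -1.58, Egr1 -5.20, Fos -4.11 and Jun -2.47. For the endothelial, sensing and protease genes, the values were AU040320 -1.28, Dnase1l3 -2.02, Ehd3 -1.32, Mavs -1.53, Mmp15 -3.86 and Rigi -2.33. For the remaining genes, some of which may share reads with a copy, the values were Alas1 -2.38, Atp6v0a1 -2.68 and Chrna4 -5.43. The values of Fam177a, Gm5641 and Gm5831 were -8.59, -6.52 and -9.30. Also in this group, they were Serpina3n -1.70 and Tat -1.51.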

How the results depend on the processing

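No paired analysis was possible because the treated and WT mice at 12-weeks share no animal number. The count of 3713 genes was 2468 in limma on log2(TPM + 1) and 1800 at an adjusted p under 0.01, and 1628 (without WT mouse 3) to 4212 (without treated mouse 12) with 1 mouse left out, with 1797 without treated mouse 10. With the length and GC trend removed it was 1345 without treated mouse 10 and 1459 without WT mouse 3, fits that were chosen after seeing the data. List members called numbered 609, and 266 (without WT mouse 3) to 674 with 1 mouse left out, and 224 and 221 in those added fits. The interaction count of 2675 was 1583 in limma, 6 with only the compared mice fitted, 0 at an adjusted p under 0.01, and 1 (without treated mouse 9 of 34-weeks) to 3450 with 1 mouse left out. The intermediate counts were 3 and 64 without WT mice 3 and 1 of 12-weeks, 172 without WT mouse 1 of 34-weeks, 458 without treated mouse 10 and 1248 without treated mouse 11 of 34-weeks. Cxcl1 turned to -0.28 without treated mouse 10 and the trend. The log2 fold change of Dnajb1 ranged from -3.32 (treated mouse 10 left out) to 0.77 (WT mouse 2 left out), and was 1.27 with the trend also removed. The cause was not tested. Of 88 named genes called, 23 higher and 23 lower were called in every setting. Many of them were chosen for large changes in the main fit of the same mice, which favours such stability. It was not counted over all called genes. Other settings (RLE, upper quartile and total count scaling, deposited length offsets, DESeq2, the filters) left the count of 3713 genes within 1.5 times. Lipa and hLIPA were called in every setting. With 3 mice a group, genes of few reads such as Ly6g were not measurable at this depth.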
